A study of Homo sapiens with 44 samples.

Results

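The genes described here are 10 genes of intestinal epithelial differentiation in HCT116, a human colorectal carcinoma cell line. They were taken by gene symbol: the transcription factors CDX1 and CDX2, the mucins MUC2 and MUC13, the goblet cell peptide TFF3, the brush border protein VIL1, the adhesion molecules CEACAM1, CEACAM5 and CEACAM6, and the galectin LGALS4. Of the 10, 9 had a row in the table of the doxorubicin experiment and 6 in the table of the GAS41 experiment, out of 21272 genes in either table, and 6 were in both. TFF3 was in neither table, and CDX1, CEACAM6 and MUC13 were not in the GAS41 table, so they are not analysed here where they have no row.

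The study asked what GAS41, a histone reader encoded by YEATS4, does in transcriptional repression, by RNA sequencing of 18 libraries in 6 groups of 3. In the doxorubicin experiment, wild-type HCT116 cells, labelled p53+/+, received the solvent DMSO (DMSO) or doxorubicin at 500 nM (Dox), an anthracycline drug that traps topoisomerase on DNA and so breaks it. In the GAS41 experiment, no drug was named and the groups were HCT116 with unedited GAS41 (WT), GAS41 knockout cells (GAS41-KO), and those knockout cells stably expressing GFP-Flag-GAS41 as the normal protein (wt rescue) or with the amino acid substitutions Y74A and W93A in its YEATS domain (mut rescue). The replicates were described as biological, but neither the duration of the treatment nor the number of knockout clones was stated. All p-values therefore measure the spread between these samples only. The 26 chromatin immunoprecipitation and input samples were not analysed here.

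The lining of the intestine is renewed from crypt stem cells, whose daughters become absorptive cells or secretory cells. CDX1 and CDX2 are homeobox factors that set intestinal identity and bind the promoters of many intestinal genes. MUC2 is the gel-forming mucin that goblet cells secrete as the main part of intestinal mucus, TFF3 is a small peptide secreted with it, and MUC13 is a mucin anchored in the apical membrane. VIL1 encodes villin, which bundles actin in the microvilli of absorptive cells. CEACAM1, CEACAM5 and CEACAM6 are cell surface adhesion molecules of one gene cluster, of which CEACAM5 is the carcinoembryonic antigen measured in blood as a tumour marker. LGALS4 is a galectin, a sugar-binding protein, of the intestinal epithelium.

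Promoter sequences of 7 of the 10 genes were found in the RefSeq table of build GRCh38.p14. Those of MUC2, CDX2 and CEACAM1 are shown because these genes were detected and tested in both experiments, and that of CEACAM5 because it lies in the same cluster as CEACAM1 and stayed at a few reads in every group. Each line gives the 250 bases before the annotated start of transcription, on the strand of the gene. The positions are chr11:1074624-1074873 on the plus strand for MUC2, chr13:27969316-27969565 on the minus strand for CDX2, chr19:42528482-42528731 on the minus strand for CEACAM1 and chr19:41708376-41708625 on the plus strand for CEACAM5. Capitals mark a match to one of 5 motifs, which were chosen with the expression values known.
MUC2: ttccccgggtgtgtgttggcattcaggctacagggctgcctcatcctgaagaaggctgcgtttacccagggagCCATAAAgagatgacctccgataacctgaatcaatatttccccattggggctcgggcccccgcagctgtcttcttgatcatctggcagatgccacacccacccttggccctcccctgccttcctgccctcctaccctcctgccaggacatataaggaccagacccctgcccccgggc
CDX2: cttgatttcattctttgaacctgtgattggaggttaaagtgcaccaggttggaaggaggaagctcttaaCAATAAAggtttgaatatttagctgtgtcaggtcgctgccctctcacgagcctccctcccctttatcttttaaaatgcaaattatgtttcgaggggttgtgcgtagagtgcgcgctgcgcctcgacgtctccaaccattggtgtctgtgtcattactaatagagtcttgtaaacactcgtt
CEACAM1: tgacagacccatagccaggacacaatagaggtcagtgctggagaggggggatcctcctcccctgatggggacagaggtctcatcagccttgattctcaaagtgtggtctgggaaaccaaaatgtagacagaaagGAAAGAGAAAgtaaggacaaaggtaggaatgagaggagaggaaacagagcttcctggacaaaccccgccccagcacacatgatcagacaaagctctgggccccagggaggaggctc
CEACAM5: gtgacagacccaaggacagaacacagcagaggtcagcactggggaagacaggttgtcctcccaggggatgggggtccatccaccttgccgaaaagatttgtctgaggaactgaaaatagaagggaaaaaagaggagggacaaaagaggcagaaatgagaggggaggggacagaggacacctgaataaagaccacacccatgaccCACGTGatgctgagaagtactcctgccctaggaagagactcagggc
The search ran over both strands of windows from 250 bases before to 50 bases after the start. The motif of the CDX factors (TTTATNG, which reads in capitals as its reverse complement) matched once in the MUC2 window, with its first base at -177, and once in the CDX2 window at -181. It was found in 9.75% of 34796 distinct RefSeq promoter windows of the same length. CEACAM1 held a match at -116 to the interferon-stimulated response element (GAAANNGAAA), which 3.57% of windows hold. CEACAM5 held the E-box CACGTG at -46, present in 7.20% of windows, and CEACAM6 held it at -45. CEACAM6 also held 2 overlapping matches to the half-site of p53 (6.65% of windows) and one to the TATA box TATAAA (11.6% of windows). LGALS4 and MUC13 matched none of the 5. The windows of CEACAM1 and CEACAM5 were identical at 66.7% of aligned positions, and those of CEACAM5 and CEACAM6 at 75.9%, against 48.0% for CEACAM1 with MUC2. A match describes letters in the reference sequence, and binding at these positions was not analysed here.

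Reads per gene and library were recovered exactly from the deposited values, with 17442035 to 18894312 reads in gene rows per library of the doxorubicin experiment and 16857982 to 18546135 in the GAS41 experiment. Normalized reads below are reads divided by the size factor of the library, given as mean ± SD of 3 libraries, and they are not divided by gene length, so they compare groups and not genes. Log2 differences are on the scale of the deposited values, which compress low counts: a value 1 above the lowest one corresponds to 52.6 normalized reads in the doxorubicin table and 39.1 in the GAS41 table. Called means an adjusted p under 0.05 in limma over all tested genes. Groups that do not overlap are given as description only, because the share of such genes among all tested genes was not counted. Both tables include the gene targeted in the study. YEATS4 had 655, 644 and 655 reads in WT, 387, 340 and 325 in GAS41-KO, 2899, 3355 and 3267 in wt rescue, and 2558, 2363 and 2523 in mut rescue. The knockout libraries thus still held YEATS4 reads, at 349 ± 32.3 against 618 ± 8.98 normalized reads (log2 difference -0.64, adjusted p = 2.09e-06), and both rescue lines were above WT. In the doxorubicin experiment YEATS4 fell from 668 ± 48.3 to 185 ± 10.7 normalized reads (log2 difference -1.25, adjusted p = 3.58e-09). The libraries were most spread out within the rescue groups, where wt rescue replicate 1 and mut rescue replicate 2 lay farthest from their group mates, by a median of 0.127 and 0.117 on the log2 scale, against 0.0436 to 0.0954 for the 10 other libraries of that table.

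Doxorubicin raised the transcripts of the mucin MUC2 and the microvillus protein VIL1 from near 0, that of the adhesion molecule CEACAM1 from a low level, and that of CDX2 by a smaller factor. All 4 genes that could be tested, CDX2, MUC2, VIL1 and CEACAM1, were higher with doxorubicin. The background in this comparison was high, with 32.3% of 14195 tested genes called higher and 33.4% called lower. MUC2 and VIL1 passed the minimum of 10 reads in at least 3 libraries only through the Dox libraries, so the count of 4 is no support by itself. The remaining 5 genes with a row had at most 6 reads in any library. Of all genes in this table, 15.44% to 16.49% had 0 reads in a DMSO library. In a Dox library 10.27% to 10.96% had 0 reads, so that genes at 0 reads were fewer with doxorubicin in general. The part of this shift in the rise of MUC2 and VIL1 from near 0 was not tested.

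MUC2 had 1, 3 and 3 reads in the DMSO libraries and 186, 169 and 178 in the Dox libraries. Every treated library was far above every control, and the groups did not overlap. The normalized level went from 2.30 ± 1.11 to 177 ± 6.0, a ratio of 77.0 with a 95% interval of 36.9 to 191 that covers counting error only. On the compressed scale the difference was 1.55 (SE 0.0549, adjusted p = 9.14e-11). VIL1 had 0, 0 and 1 reads in DMSO and 46, 39 and 55 in Dox. Villin transcript was therefore at the limit of detection in control cells and present in all 3 treated libraries, at 46.5 ± 7.33 normalized reads. The ratio of 140 reads to 1 read, scaled for library size, was 141, with a counting interval of 24.8 to 5593 (log2 difference 0.89, SE 0.0592, adjusted p = 3.18e-08).

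CEACAM1 had 13, 21 and 17 reads in DMSO and 378, 339 and 352 in Dox. The treated libraries formed a tight group above the controls, with 355 ± 15.8 against 16.9 ± 3.82 normalized reads. This ratio of 21.1 had a counting interval of 15.9 to 28.5, and the log2 difference was 1.80 (SE 0.0593, adjusted p = 4.8e-11). CEACAM1 lies in a cluster of genes of similar sequence, and how reads that match several of them were counted is not given in the sources used here. Its neighbours did not carry such counts. CEACAM5 had 6, 2 and 2 reads in DMSO and 6 in each Dox library, so that the groups overlapped and no test was made. CEACAM6 had 0 reads in 5 of the 6 libraries and 1 read in Dox replicate 3.

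CDX2, the member with the most reads in every library, had 368, 345 and 322 reads in DMSO and 438, 449 and 427 in Dox. The lowest treated library stood above the highest control. The level rose 1.27-fold (counting interval 1.17 to 1.38), from 343 ± 30.9 to 437 ± 18.3 normalized reads, with a log2 difference of 0.24 (SE 0.0659, 95% interval 0.10 to 0.39, adjusted p = 0.0055). CDX1, its paralog, had 0 reads in all DMSO libraries, and in Dox 2, 0 and 0 reads. A total of 0 reads allows up to 3, so no difference was detectable at this depth. MUC13 had 0 reads in all DMSO libraries, and in Dox 2, 3 and 0. LGALS4 had 1, 3 and 0 reads in DMSO and 1, 0 and 2 in Dox. Neither could be tested, and both remained at or below 3 reads in every library.

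**Figure D1:**
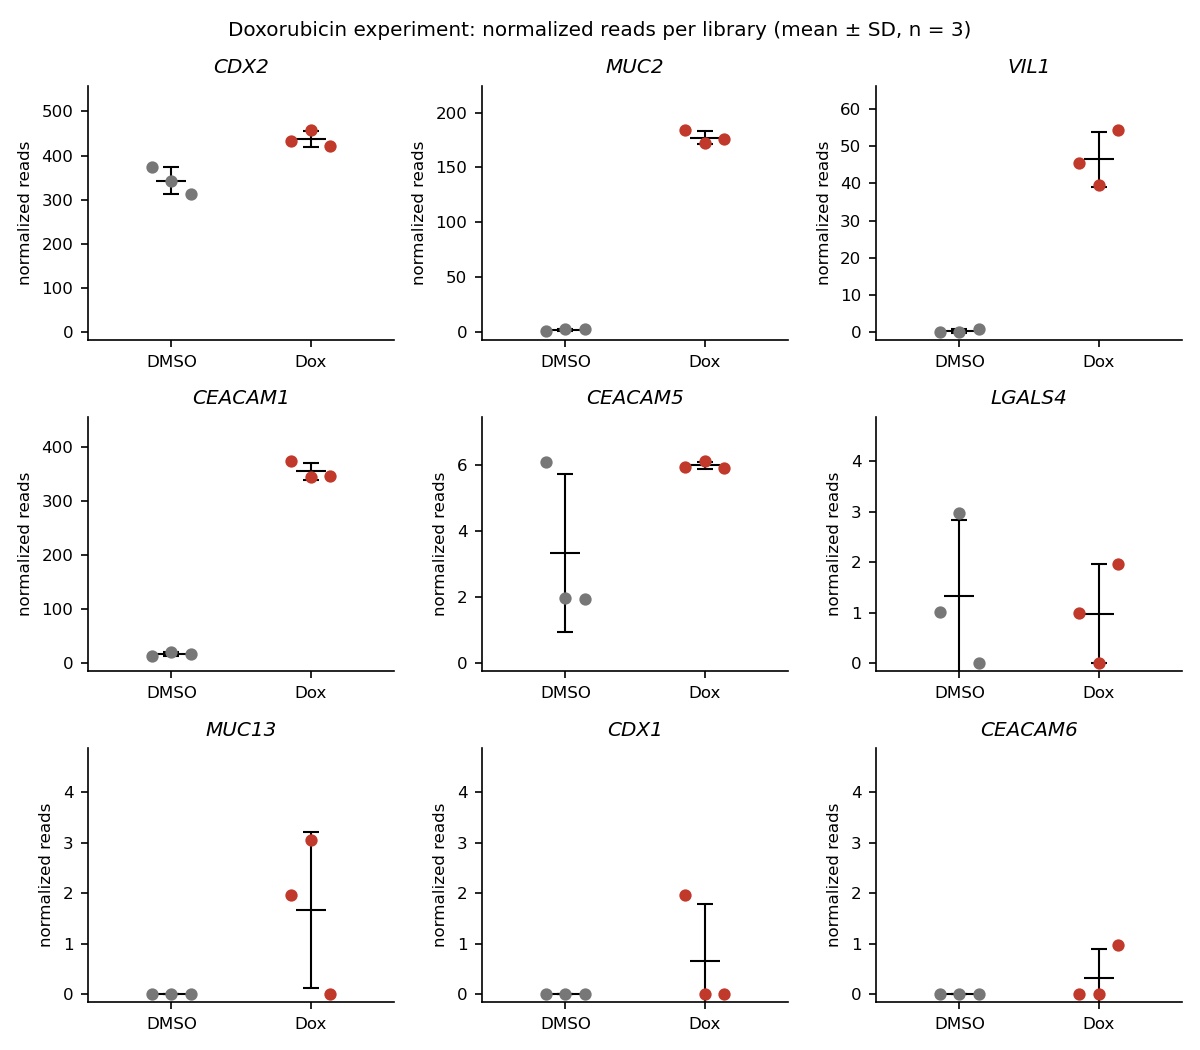
Normalized reads (vertical axes, linear, each panel on its own scale) of the 9 genes with a row in the doxorubicin table, for DMSO (grey) and Dox (red). Points are single libraries, bars the mean ± SD of 3. CDX2, MUC2, VIL1 and CEACAM1 show no overlap between the groups, while CEACAM5, LGALS4, MUC13, CDX1 and CEACAM6 lie at 6 reads or fewer in every library.

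In the GAS41 knockout, MUC2 and CEACAM1 were higher than in WT, and CDX2 was not called. Of the 6 genes with a row in this table, 3 could be tested, and 2 of these were called higher, against a background of 26.0% higher and 26.6% lower among the 14505 genes tested. MUC2 passed the filter only through the GAS41-KO and mut rescue libraries. Apart from CDX2, with 176 to 291 reads per library, levels were low: CEACAM1 reached 46 reads and MUC2 no more than 15. Reads of the other 3 genes stayed at 8 or fewer in every library.

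CEACAM1 had 14, 8 and 25 reads in WT and 46, 42 and 40 in GAS41-KO. The WT libraries were more scattered than the knockout libraries, and the highest of them remained below the lowest knockout library. The normalized level was 14.9 ± 8.19 in WT and 42.5 ± 3.04 in GAS41-KO, a ratio of 2.86 with a counting interval of 2.03 to 4.08 (log2 difference 0.43, SE 0.0747, adjusted p = 0.000143). In wt rescue the reads were 10, 14 and 9, and in mut rescue 16, 21 and 24. Both rescue lines were below the knockout, the normal protein more so. CEACAM1 fell by 0.50 on the log2 scale in wt rescue against GAS41-KO (adjusted p = 2.4e-05) and by 0.31 in mut rescue (adjusted p = 0.00945). The second of these calls was lost without mut rescue replicate 1, with an adjusted p of 0.0527. The order of the means was GAS41-KO, mut rescue at 20.4 ± 4.13, WT, and wt rescue at 11.3 ± 2.89. Neither mut rescue and WT (adjusted p = 0.215) nor WT and wt rescue (adjusted p = 0.481) differed beyond their spread.

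MUC2 had 3, 2 and 4 reads in WT and 7, 15 and 11 in GAS41-KO. The groups did not overlap, although the knockout reached only 10.9 ± 3.93 normalized reads against 2.85 ± 0.953. The ratio was 3.84, with a counting interval of 1.80 to 9.14 (log2 difference 0.26, SE 0.0747, adjusted p = 0.00831). In wt rescue MUC2 had 0, 0 and 2 reads, and in mut rescue 7, 9 and 15. Thus the line with normal GAS41 had the fewest MUC2 reads of the 4 groups, and the line with mutated GAS41 overlapped the knockout. Genes at 0 reads were also more common in wt rescue, at 7.20% to 8.55% of all genes with a row per library. In the libraries of the other groups they made up 4.88% to 5.61%. The part of this shift in the low MUC2 reads of wt rescue was not tested. MUC2 fell by 0.45 on the log2 scale in wt rescue against GAS41-KO (adjusted p = 6.24e-05), from 33 reads to 2, a ratio of 15.9 with a counting interval of 4.11 to 138. In mut rescue against GAS41-KO the difference was -0.02, with a 95% interval of -0.17 to 0.14 (adjusted p = 0.923).

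CDX2 had 237, 275 and 230 reads in WT, 210, 201 and 237 in GAS41-KO, 246, 291 and 229 in wt rescue, and 198, 235 and 176 in mut rescue. In normalized reads the groups overlapped except for the rescue lines, where the lowest wt rescue library (236) stood just above the highest mut rescue library (234), and the unscaled reads of these overlapped. In order, the means were 262 ± 36.5 in wt rescue, 235 ± 22.0 in WT, 215 ± 19.8 in GAS41-KO and 203 ± 29.1 in mut rescue. No neighbours in this order differed beyond their spread: the adjusted p was 0.307 for wt rescue against WT, 0.426 for GAS41-KO against WT and 0.718 for mut rescue against GAS41-KO. The log2 difference between knockout and WT was -0.08, with a 95% interval of -0.25 to 0.09, which holds a fall as well as a rise. In wt rescue against GAS41-KO it was 0.18, with an adjusted p of 0.0572.

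Against the knockout, the rescue with normal GAS41 thus had 2 of the 3 tested genes lower, where 33.0% of all tested genes were lower and 33.0% higher. The rescue with mutated GAS41 had 1 of the 3 lower, CEACAM1, where 9.00% of all genes were lower and 5.92% higher. The difference between the rescue lines was tested directly. In mut rescue against wt rescue, MUC2 was higher (log2 difference 0.44, SE 0.0747, adjusted p = 0.000118), at 31 reads against 2. CEACAM1 was also higher there, by 0.18 (adjusted p = 0.0434), and CDX2 was lower, falling by 0.24 (adjusted p = 0.0180), where 29.8% of all genes were called higher and 31.3% lower. The groups did not overlap for MUC2 and CEACAM1, and for CDX2 only after scaling for library size. The call of CEACAM1 was lost under 9 of 14 alternative settings and that of CDX2 under 4, while that of MUC2 was kept under all 14. YEATS4 itself was lower in mut rescue than in wt rescue, by a log2 difference of -0.37 (adjusted p = 0.000443), and the part of this gap in the differences between the lines was not tested.

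Compared with WT, wt rescue had 1 of the 3 genes lower, MUC2 (log2 difference -0.19, adjusted p = 0.0407), where 22.7% of all genes were lower. The libraries overlapped at 2 reads, and the call was lost under 9 of 14 alternative settings. In mut rescue 1 of the 3 was higher than in WT, again MUC2 (log2 difference 0.24, adjusted p = 0.0140), where 23.5% of all genes were higher. This call was lost without mut rescue replicate 3 (adjusted p = 0.0720) and without WT replicate 2 (adjusted p = 0.0539). These comparisons share the WT or the knockout libraries and are not independent of each other.

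**Figure D2:**
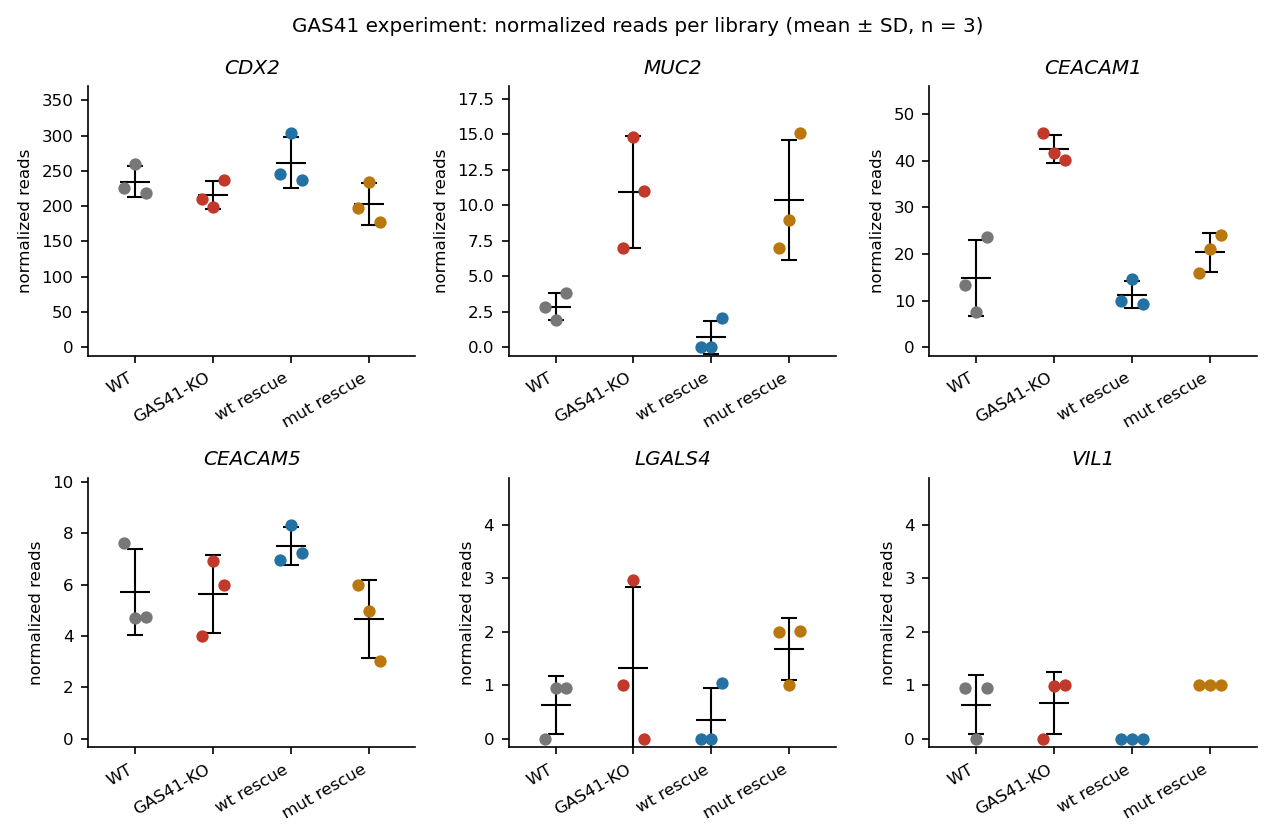
Normalized reads (vertical axes, linear, each panel on its own scale) of the 6 genes with a row in the GAS41 table, in WT, GAS41-KO, wt rescue and mut rescue. Points are single libraries, bars the mean ± SD of 3. CEACAM1 is highest in the 3 GAS41-KO libraries, MUC2 is at 7 reads or more in GAS41-KO and mut rescue and at 4 or fewer in WT and wt rescue, and CEACAM5, LGALS4 and VIL1 stay at 8 reads or fewer.

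The genes that were too low to test in the GAS41 experiment showed no shift that the depth could resolve. CEACAM5 had 8, 5 and 5 reads in WT, 4, 7 and 6 in GAS41-KO, 7, 8 and 7 in wt rescue, and 6, 5 and 3 in mut rescue. The ratio of knockout to WT was 0.990, with a counting interval of 0.480 to 2.04. LGALS4 had 0 to 3 reads in every library, with totals of 2, 4, 1 and 5 reads in WT, GAS41-KO, wt rescue and mut rescue. VIL1 had 2, 2, 0 and 3 reads in the same order. Villin transcript, which reached 39 to 55 reads per library with doxorubicin, was thus at no more than 1 read in any library of the GAS41 experiment. The experiments were sequenced on different instruments and normalized separately, so levels were not compared between the tables.

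**Figure D3:**
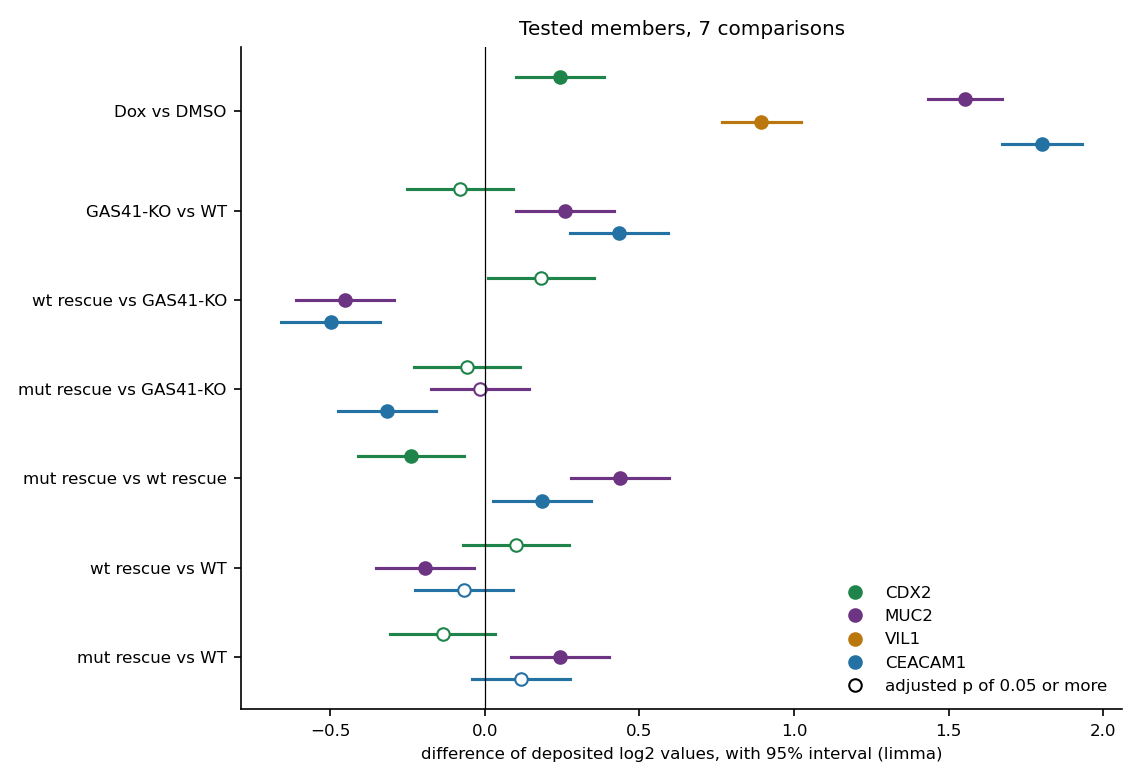
Differences of the deposited log2 values (horizontal axis) of the tested genes in the 7 comparisons, with 95% intervals from limma. Filled points have an adjusted p under 0.05, open points do not. MUC2 and CEACAM1 lie right of 0 in Dox and GAS41-KO and left of 0 in wt rescue against GAS41-KO, while the interval of MUC2 in mut rescue against GAS41-KO spans 0.

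The other genes of intestinal lineages and of the same families were read from 7 lists, of which all but those of the CEACAM and galectin families held genes called in both directions. Of all tested genes, 32.3% were called higher with doxorubicin and 33.4% lower. Some listed genes, among them MUC5B, MYO1A, CCK and LGALS9C, would not have passed the filter on reads without the Dox libraries. Counts of higher genes are thus no support by themselves. With doxorubicin, the secretory and goblet cell list had 9 of 15 tested genes higher and 1 lower, with a median log2 difference of 0.26 against -0.0089 over all genes. Among the 9 were NOTCH1, a receptor that restrains secretory fate (863 ± 105 to 2102 ± 244 normalized reads), and SYTL2, a regulator of vesicle release (226 ± 17.1 to 508 ± 57.0). The list thus also holds genes of Notch signalling, so its counts in any comparison give no direction of cell fate. FCGBP, a mucus protein of goblet cells, rose from 65.4 ± 11.8 to 197 ± 28.2 (adjusted p = 1.47e-06). ATOH1, the factor that specifies secretory cells, had 2 reads in total over the 3 DMSO libraries and 16 over the 3 Dox libraries, too low to test. Other factors of this list did not rise: GFI1 went from 156 ± 16.2 to 106 ± 8.06 normalized reads, and SPDEF, not tested, from 4 reads to 2. The absorptive list had 7 of 18 higher and 4 lower (median 0.09). CA2, a carbonic anhydrase of colonocytes, rose 6.31-fold, from 831 ± 55.0 to 5242 ± 86.5, and ESPN, an actin bundler of microvilli like villin, rose 3.74-fold, from 719 ± 115 to 2689 ± 39.3. KRT20, a keratin of differentiated intestinal cells, rose from 16.3 ± 3.54 to 99.6 ± 10.6 (adjusted p = 8.85e-08), and MYO1A, a brush border myosin, from 3.65 ± 0.641 to 59.1 ± 4.51 (adjusted p = 2.58e-08). The 4 lower genes were MYO5B, an apical transport myosin (1015 ± 44.2 to 649 ± 52.9), DPP4, a brush border peptidase (135 ± 7.29 to 65.8 ± 10.4), the microvillus bundler PLS1 (1412 ± 137 to 1046 ± 113) and the efflux pump ABCB1 (134 ± 23.8 to 89.8 ± 3.41). SOX9, a factor of crypt base cells, rose from 1831 ± 120 to 2698 ± 180 (adjusted p = 4.5e-05). FCGBP, ATOH1, GFI1, SPDEF, KRT20, MYO1A, SOX9 and these 4 lower absorptive genes were named for doxorubicin after their values were seen.

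Of the intestinal transcription factors, 8 of 15 tested were higher with doxorubicin and 5 lower (median 0.22). VDR, the vitamin D receptor, rose from 534 ± 39.3 to 1168 ± 30.5, and PPARG, a nuclear receptor of colonocytes, fell from 658 ± 37.8 to 270 ± 4.42. Crypt stem cell genes were split, with 3 of 11 higher and 5 lower (median -0.11). EPHB3, a receptor that positions cells along the crypt, rose 6.49-fold to 727 ± 17.9, and BMI1, a Polycomb subunit of stem cells, fell from 76.4 ± 10.5 to 24.6 ± 1.01. Enteroendocrine and tuft cell genes had 4 of 9 higher and 1 lower (median 0.19), among them the hormone gene CCK (8.02 ± 4.76 to 44.9 ± 5.65). Of the relatives of the family members, CEACAM19 rose from 36.4 ± 15.0 to 77.5 ± 8.66 and was 1 of 2 CEACAM genes tested, with a median of 0.20. Of 6 genes of the galectin list 5 rose and none was called lower (median 0.43). LGALS9 rose 23.9-fold, from 15.2 ± 2.63 to 365 ± 40.0 normalized reads. LGALS9C, a near copy of LGALS9 whose reads the counting could share with it, had 1 read in DMSO and 78 in Dox.

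In the knockout, the lists were read beside a median of -0.0084 over all genes, and again those of the CEACAM and galectin families alone held no calls in both directions. Of all tested genes, 26.0% were called higher in the knockout and 26.6% lower. Among the listed genes, FOXA2 passed the filter on reads only through the GAS41-KO libraries, and CREB3L3 only through GAS41-KO and mut rescue. Here too, counts of higher genes are no support by themselves. Secretory genes had 4 of 15 higher and 3 lower (median 0.06), with HES1, a target of Notch signalling, at 381 ± 20.1 against 253 ± 8.59 normalized reads and MUC3A, a membrane mucin, at 265 ± 20.9 against 459 ± 7.50. DLL4, a Notch ligand, and FCGBP were higher too, at 56.1 ± 4.34 against 26.2 ± 4.74 and at 107 ± 13.8 against 73.7 ± 2.42. GFI1, picked after its values were seen, was at 121 ± 9.60 against 161 ± 10.6. Absorptive genes had 7 of 20 higher and 6 lower (median -0.04). KRT20 rose 6.27-fold, from 16.5 ± 2.46 to 103 ± 4.21, and was at 22.7 ± 8.58 in wt rescue and 95.4 ± 9.52 in mut rescue. ABCB1, an efflux pump of the apical membrane, rose 4.50-fold to 473 ± 11.1, EPS8, an actin regulator of microvilli, rose 3.38-fold to 4207 ± 116, and SLC9A2, a sodium-proton exchanger, rose 2.63-fold to 143 ± 14.7. Other absorptive genes went down, as SLC15A1 from 68.7 ± 0.634 to 32.2 ± 4.57, PLS1 from 1337 ± 43.9 to 906 ± 44.5 and CA2 from 634 ± 34.6 to 439 ± 33.5. SLC5A1 went from 56 reads in WT to 1 in GAS41-KO, and passed the filter only through WT. These falling genes were picked after their values were seen. Transcription factors had 8 of 17 higher and 7 lower (median 0.10). Among them ELF3, an epithelial factor, fell from 965 ± 21.7 to 299 ± 13.2, NR5A2 from 212 ± 7.59 to 59.8 ± 7.61 and VDR from 527 ± 28.5 to 256 ± 3.70, while KLF5, a factor of proliferating crypt cells, rose from 826 ± 32.1 to 1414 ± 101.

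Crypt stem cell genes had 4 of 11 higher and 5 lower in the knockout (median -0.09). PROM1, LRIG1 and BMI1 fell 3.50-fold, 2.71-fold and 2.80-fold, and TNFRSF19 rose 4.28-fold from 12.6 ± 6.68 normalized reads. Enteroendocrine and tuft cell genes had 4 of 8 higher and 1 lower (median 0.10). DCLK1, a tuft cell kinase, rose 13.7-fold, from 30.4 ± 7.23 to 417 ± 29.6, and NEUROD1, an endocrine factor, rose from 6 reads to 193. PTGS1, a prostaglandin synthase of tuft cells, rose 3.65-fold, and PAX6, an endocrine factor, fell from 97.8 ± 14.4 to 67.7 ± 5.44. The 3 other CEACAM genes tested were not called in the knockout (median -0.03). All 5 genes tested of the galectin list, which includes a galectin ligand, were higher (median 0.58), led by LGALS9 (10.8 ± 4.68 to 189 ± 5.71) and that ligand, LGALS3BP (4562 ± 199 to 14411 ± 565), with LGALS8 and LGALS3 higher by 1.62-fold and 1.44-fold.

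**Figure D4:**
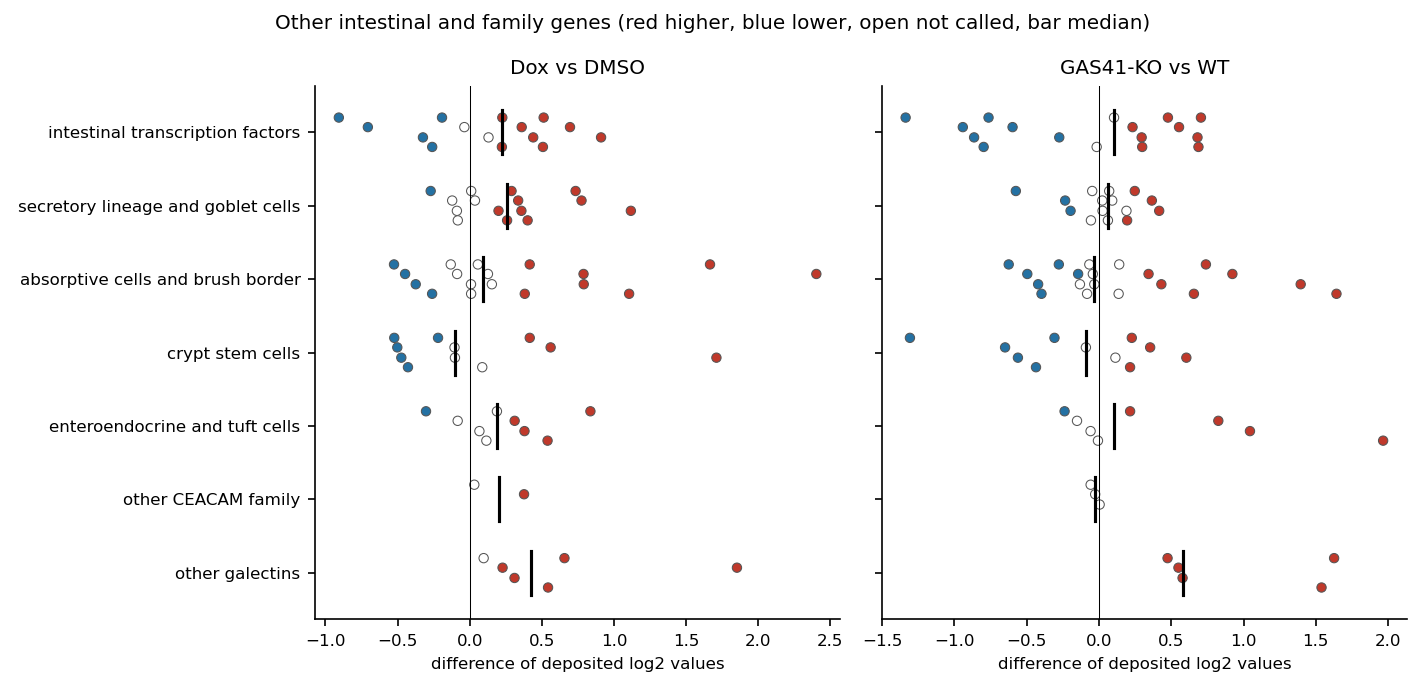
Differences of the deposited log2 values (horizontal axis) of the genes of 7 lists with Dox against DMSO (left) and GAS41-KO against WT (right). Each point is a tested gene, red where called higher, blue where called lower and open where not called, and the bar is the median of the list. No gene of the galectin list is called lower in either panel, and the other lists apart from the CEACAM genes hold both red and blue points in both panels.

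The lists were then read in the rescue lines. Of all tested genes, 33.0% were called lower and 33.0% higher in wt rescue against GAS41-KO. In mut rescue against GAS41-KO 9.00% were lower and 5.92% higher, and in mut rescue against wt rescue 29.8% were higher and 31.3% lower. Against GAS41-KO, where the median over all genes was -0.012, 9 of 15 secretory genes were lower and 1 higher in wt rescue (median -0.26), as were 9 of 20 absorptive genes, with 2 higher (median -0.17), and 5 of 5 genes of the galectin list (median -0.69). Transcription factors had 8 lower and 6 higher of 17 (median -0.09), stem cell genes 7 lower and 3 higher of 11 (median -0.24), endocrine and tuft genes 3 lower and 1 higher of 8 (median -0.07), and CEACAM genes 1 lower of 3 (median -0.12). In mut rescue against GAS41-KO none of the 15 secretory genes was called (median 0.0065, against 0.0083 over all genes). There 4 absorptive genes were lower and 2 higher (median -0.0027), 3 genes of the galectin list were lower (median -0.24), 4 transcription factors were lower and 1 higher (median -0.05), 8 stem cell genes were lower and 1 higher (median -0.28), 2 endocrine and tuft genes were lower (median -0.03), and no CEACAM gene was called (median -0.0095). Between the rescue lines directly, 8 secretory genes were higher and 4 lower in mut rescue (median 0.23, against 0.0046 over all genes), and all 5 of the galectin list were higher (median 0.52). Stem cell genes had 3 higher and 6 lower there (median -0.17). Absorptive genes had 8 higher and 4 lower (median 0.09), and transcription factors 8 higher and 5 lower (median 0.12). Endocrine and tuft genes had 4 higher and 1 lower (median 0.10), and CEACAM genes 1 higher of 3 (median 0.11).

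Marker genes of other cell types were read for the same libraries. Their calls stand beside 32.3% of all tested genes higher and 33.4% lower with doxorubicin, and 26.0% higher and 26.6% lower in GAS41-KO. The 8 epithelial markers were present in both tables. With doxorubicin 5 of 8 were higher and 2 lower (median 0.43), and their summed level was 81206 to 97004 normalized reads in DMSO and 154909 to 174489 in Dox, KRT8 and KRT19 taking most of the rise (KRT8 at 41323 ± 5768 and 91614 ± 4983). In GAS41-KO 5 of 8 were lower and 2, KRT8 and KRT18, higher (median -1.45), and the sum was 64345 to 68004 in WT and 65344 to 67204 in GAS41-KO. EPCAM was at 7503 ± 348 normalized reads in WT, 915 ± 17.0 in GAS41-KO, 9012 ± 782 in wt rescue and 1670 ± 162 in mut rescue, and CDH1 at 1419 ± 17.0, 138 ± 15.1, 1350 ± 103 and 163 ± 13.6. With doxorubicin EPCAM was at 7198 ± 391 in DMSO and 4938 ± 409 in Dox, and CDH1 at 1405 ± 32.0 and 2105 ± 85.3. The part of these single markers in the changes of MUC2 and CEACAM1 was not tested. In such bulk libraries, more cells with a transcript and more transcript per cell cannot be told apart.

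CEACAM1 is also carried by granulocytes, so their markers are given beside it. Of the 8 granulocyte markers 5 had a row in the doxorubicin table and their sum was 25.4 to 37.8 normalized reads in DMSO and 165 to 225 in Dox, of which CXCR2, a chemokine receptor, made up 9.55 ± 3.54 and 136 ± 25.2. The 2 that could be tested with doxorubicin, CXCR2 and PRTN3, were both called higher (median 0.72). PRTN3 was at 22.8 ± 5.76 in DMSO and 49.3 ± 6.69 in Dox (adjusted p = 0.00058 in limma). CXCR2 would not have passed the filter on reads without the Dox libraries. MPO and CSF3R had 0 reads in DMSO and 2 and 1 in Dox. All these libraries are of the HCT116 cell line, and a link between these markers and the rise of CEACAM1 was not tested. Of the 8, 3 had a row in the GAS41 table, and the sum was 11.1 to 26.4 over all libraries, and neither of the 2 tested was called in the knockout (median -0.07). Blood and immune markers (7 of 11 in the GAS41 table, 9 of 11 in the doxorubicin table) summed to 197 to 390 and 211 to 299.9 normalized reads, mostly CD68, with 1 of 2 tested higher in the knockout and 1 of 2 lower with doxorubicin. Fibroblast markers (3 and 6 of 7) summed to 161 to 335 and 246 to 407, with 1 of 2 tested higher in each. Endothelial markers (6 of 6 in both) summed to 16.5 to 31.7 and 15.3 to 43.4, and the 2 that could be tested with doxorubicin were higher. These were PECAM1 and VWF, and neither would have passed the filter on reads without the Dox libraries. The same holds for PDGFRB, the fibroblast marker higher with doxorubicin. COL3A1, the one higher in the knockout, passed only through GAS41-KO and mut rescue libraries, so these counts are no support by themselves. Stomach markers (5 and 6 of 10) summed to 6.19 to 44.0 and 11.6 to 19.3, and of the 2 tested in the knockout neither was called.

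Genes with the most similar pattern over the 12 libraries of the GAS41 experiment were ranked by Pearson's correlation of the deposited values, among 10570 genes with a mean of at least 100 normalized reads. For CEACAM1 the first was SOX9 (r = 0.960), with group means of 1834, 3084, 1747 and 2193 normalized reads in WT, GAS41-KO, wt rescue and mut rescue, followed by ZNF641 (0.934) and EPHB2 (0.933). SOX9 is a factor and EPHB2 a receptor that crypt base cells express. For MUC2 they were TNRC6C (0.948), TTC13 (0.947) and C6orf203 (0.946), and for CDX2 MED9 (0.919), STRN4 (0.884) and BOK (0.883). The 12 points share libraries and groups, so these values describe likeness only.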

How the data were processed

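RNA was measured in 18 libraries, 3 per group in 6 groups taken from the labels, the GAS41 libraries after selection of poly-A RNA. The submitters' processing notes name CASAVA 1.4, Trimmomatic 0.36, Bowtie 1.0.1, TopHat2 2.1.0, HTSeq, DESeq2 and the builds hg19 and mm9, without roles or order. The authors deposited one table of log2 values per experiment, normalized separately. These values follow a variance-stabilizing curve, whose inverse gave whole reads for 100% of the 225564 and 126954 values within 0.01. How the log2 values were made is not given in the sources used here.

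A gene was tested when 3 or more libraries of its table held 10 or more of its recovered reads. The test was that of limma 3.58.1 (R 4.3.3) on the deposited log2 values, its prior variance following the mean, with all libraries of a table in one fit and Benjamini-Hochberg adjustment over 14505 or 14195 genes. The method was tested on simulated data. Counting intervals are exact 95% intervals of a ratio of summed reads and cover counting error only. Reads carry no molecular identifiers in the sources used here.

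The members and lists were chosen with earlier results of these data known. Beside the members and YEATS4, up to 4 called genes of smallest adjusted p were named per list in the knockout and up to 2 with doxorubicin, and for each tested member the 3 genes of highest correlation. One gene this rule names is not reported here. Alternatives were no filter on low reads, voom with the deposited or TMM factors, quantile normalization, one prior variance for all genes, only the groups compared, a block for the replicate number, wt rescue replicate 1 alone in its group, and each library left out. Sequences came from RefSeq, GRCh38.p14.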

Additional observations from a re-analysis of the deposited data

Results flagged for a closer look

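The difference over GAS41-KO was not the same in the rescue with normal and with mutated GAS41, by the direct comparison of the rescue lines in limma. In this comparison 29.8% of all tested genes were called higher in mut rescue and 31.3% lower. MUC2 differed from GAS41-KO by -0.45 in wt rescue and -0.02 in mut rescue on the log2 scale, so that mut rescue minus wt rescue was 0.44 (adjusted p = 0.000118). It rested on 31 reads against 2, and MUC2 passed the filter on reads only through the GAS41-KO and mut rescue libraries. Of all genes with a row, 7.20% to 8.55% had 0 reads in a wt rescue library and 4.88% to 5.61% in a mut rescue library. CEACAM1 differed from GAS41-KO by -0.50 and -0.31, a difference of 0.18 (adjusted p = 0.0434) whose call was lost under 9 of 14 alternative settings. For CDX2 the difference was -0.24 (adjusted p = 0.0180), and its call was lost under 4 of 14. With each library of these lines left out in turn, 1 to 2 of the 3 calls remained. The normalized values of the lines did not overlap, for CDX2 by a gap of 236 against 234, where the unscaled reads overlapped.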

How the results depend on the processing

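Of 384 alternative fits of 29 gene differences, 347 kept their direction and their side of the threshold, 26 lost the call, 6 gained it and 5 changed sign. With each library left out in turn, the number of members called stayed at 2 in GAS41-KO against WT and 4 in Dox against DMSO, and ranged from 2 to 3 in wt rescue against GAS41-KO, 0 to 1 in mut rescue against GAS41-KO, 1 to 2 in mut rescue against wt rescue, 0 to 1 in wt rescue against WT and 0 to 2 in mut rescue against WT. The count fell to 0 in wt rescue against WT with no filter on low reads, with quantile normalization, with only the 2 groups compared and with wt rescue replicate 1 alone in its group. With that library alone, assumed to vary like the other groups, the count in mut rescue against wt rescue was 1, MUC2. With no filter that count stayed at 3, but VIL1, with 3 reads against 0, took the place of CEACAM1. No differences that changed sign had been called. With each library left out, CDX2 in mut rescue against GAS41-KO lay between -0.12 and 0.0025 (positive without mut rescue replicate 3) and MUC2 between -0.073 and 0.031 (positive at 0.027 without mut rescue replicate 1 and 0.031 without GAS41-KO replicate 2). CEACAM1 in wt rescue against WT lay between -0.15 and 0.022 (positive without WT replicate 3), and was 0.011 with quantile normalization. The cause was not tested.

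On the voom scale, which does not compress low counts, differences were larger: up to 6.08 for MUC2, 6.03 for VIL1 and 4.38 for CEACAM1 with doxorubicin, and up to 1.78 and 1.64 for MUC2 and CEACAM1 in the knockout. Depth kept CDX1, CEACAM5, CEACAM6, LGALS4 and MUC13 from being tested, and few reads stand behind the lower groups of MUC2, CEACAM1 and VIL1.

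The samples were not treated as paired by replicate number. In no comparison was the correlation of same-numbered deviations over 0.1 in all 3 pairs. It was 0.14, 0.15 and -0.04 in GAS41-KO against WT, and -0.39, 0.08 and 0.15 in Dox against DMSO. Single pairs reached up to 0.48, for replicate 2 in mut rescue against wt rescue, where replicate 3 was at -0.39. What such pairs share was not tested. With the replicate number as a block, 7890 genes were called in GAS41-KO against WT in place of 7624 and 9238 with doxorubicin in place of 9326. The block raised the calls in every comparison of the GAS41 experiment, as from 2164 to 2403 in mut rescue against GAS41-KO. Members called in wt rescue against GAS41-KO went from 2 to 3, with CDX2 gained (adjusted p = 0.0384).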

Other observations

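Values of the endocrine and tuft cell genes named for the knockout are given here for the rescue lines. NEUROD1, an endocrine factor, was at 1.90 ± 0.951 normalized reads in WT, 64.1 ± 6.81 in GAS41-KO, 215 ± 37.6 in wt rescue and 3.67 ± 2.32 in mut rescue. DCLK1, a tuft cell kinase, was at 30.4 ± 7.23, 417 ± 29.6, 100.3 ± 9.55 and 445 ± 62.0 in the same order. PTGS1 was at 38.9 ± 7.51, 142 ± 15.1, 36.9 ± 4.23 and 72.7 ± 10.5, and PAX6 at 97.8 ± 14.4, 67.7 ± 5.44, 70.9 ± 14 and 60.0 ± 5.27. MUC6, a mucin of stomach glands that is listed among both the secretory and the stomach genes, had 31, 40, 6 and 46 reads in total over the 3 libraries of each group. It was lower in wt rescue than in GAS41-KO (log2 difference -0.35, adjusted p = 0.00029) and not called in the knockout (adjusted p = 0.408). LGALS9C had 0, 2, 0 and 34 reads in the same order and was not tested. MUC6 and LGALS9C were picked after their values were seen.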
